A study of Mus musculus with 4 samples.

Results

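The genes described here encode the parts of the mitochondrial respiratory chain and ATP synthase that lie in the nuclear genome. They were chosen by symbol, leaving out the mitochondrial chromosome and pseudogene rows: genes that start with Ndufa, Ndufb, Ndufc, Ndufs or Ndufv, Sdha to Sdhd, and genes that start with Uqcr, Cox4 to Cox8 or Atp5, with Cyc1 and Cycs. Of 35522 genes listed, 94 met the rule, and 88 of these had enough reads to be tested. Liver RNA was sequenced at 24 h after diethylnitrosamine (DEN), a liver carcinogen, in mice of strain C57BL/6. Livers labelled Dph1 KO (n = 2) were compared with livers labelled Control (n = 2), and both genotypes had received DEN. Dph1 encodes an enzyme subunit that starts the making of diphthamide, an altered histidine in elongation factor eEF2 of the ribosome cycle. The labels give no age, sex or DEN dose, and they do not name the deleted exons, the cells in which Dph1 was deleted or what drove the deletion. Nothing in them ties the libraries of one genotype to different animals, and each p-value thus covers the spread among these samples, which may be technical.

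The respiratory chain passes electrons from NADH and succinate to oxygen and pumps protons across the inner mitochondrial membrane, and ATP synthase uses the returning protons to make ATP. Complex I oxidises NADH, complex II oxidises succinate, and both hand electrons to ubiquinone. Complex III moves them on to cytochrome c, complex IV reduces oxygen, and complex V is the ATP synthase. Complex II is built wholly from nuclear genes, while the other complexes combine nuclear-encoded subunits with subunits made inside the mitochondrion. Hepatocytes are rich in mitochondria and draw on this chain for gluconeogenesis, urea synthesis and the oxidation of fat.

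The libraries held 19474596 to 21137358 reads in genes. Read counts were scaled to library size (CPM) with TMM factors, which lay at 1.16 and 1.04 in Dph1 KO and at 0.945 and 0.884 in Control. Dph1 itself had 17.8 and 31.5 CPM in the Dph1 KO libraries, against 70.3 and 68.3 CPM in the Control libraries, with a log2 fold change of -1.49 (SE 0.26; edgeR, Benjamini-Hochberg adjusted p = 0.0107). The 7 hepatocyte marker genes summed to 61609 and 61774 CPM in Dph1 KO and to 57287 and 67802 CPM in Control, and none of the 7 was called. Of 13303 genes tested, 646 rose (4.86%) and 994 fell (7.47%) at an adjusted p under 0.05. Across genes, the Pearson r of log2 CPM was 0.978 within Dph1 KO and 0.988 within Control. In whole liver RNA, fewer cells of a type and less RNA per cell cannot be told apart.

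Of the 88 respiratory chain genes tested, 7 fell in Dph1 KO livers and 0 rose. The share that fell was 7.95%, near the 7.47% of all genes tested that fell, and 4.86% of all genes rose. Without adjustment, 24 of the 88 were lower and 4 were higher in edgeR at p under 0.05, where 17.9% and 16.3% of all genes were. The log2 fold change lay below 0 in 58 of the 88, and in 47.3% of all genes. The 7 were the complex I accessory subunit genes Ndufb10, Ndufa11, Ndufb8 and Ndufv3, the complex IV gene Cox4i1, the complex V gene Atp5o, and Atp5sl, which is named after ATP synthase. The median log2 fold change was -0.19 over the 88 genes and 0.04 over all genes tested. By complex, the medians were -0.14 over 36 complex I subunits, 0.01 over 4 complex II subunits, -0.26 over 9 complex III subunits, -0.46 over 11 complex IV subunits and -0.38 over 15 complex V subunits. The 6 genes not tested were Cox4i2, Cox6a2, Cox7b2, Cox8b, Cox8c and Atp5l2, which had at most 11 reads in a library.

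**Figure D1:**
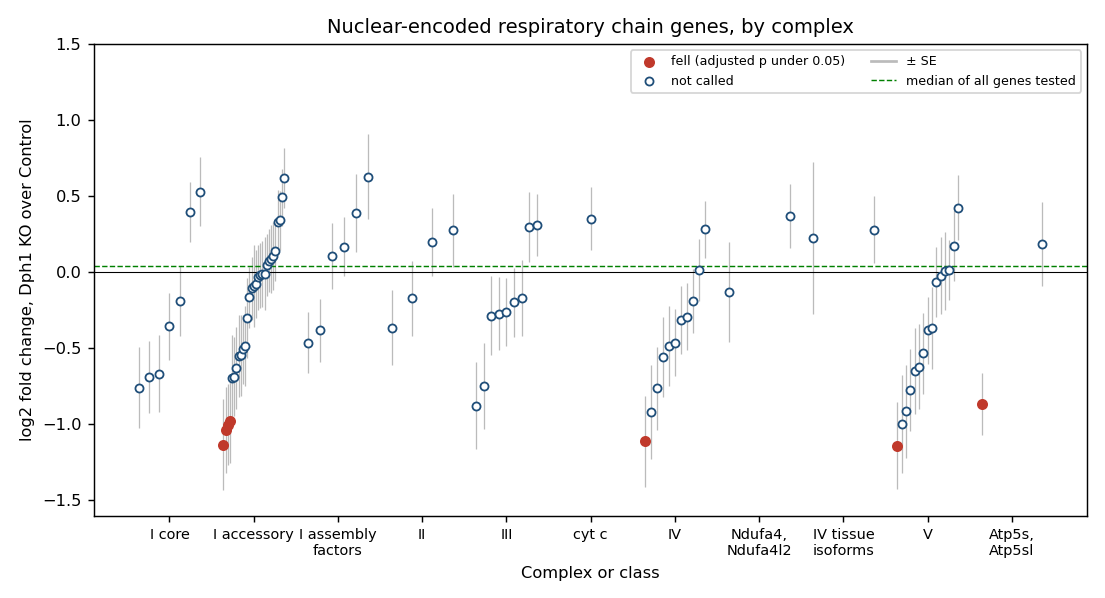
Log2 fold change (Dph1 KO over Control, TMM-scaled counts) of each tested gene by complex or class, with its SE as a grey line; filled points fell at an adjusted p under 0.05. Within complexes I, III, IV and V the points run from well below to above 0, and the 7 filled points lie at -0.87 or lower, against a median of 0.04 over all genes (dashed line).

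The 7 genes that fell stood in the same order in the 4 libraries, with Dph1 KO replicate 1 lowest, then Dph1 KO replicate 2, Control replicate 1 and Control replicate 2. Atp5o encodes the subunit that joins the catalytic head of ATP synthase to its peripheral stalk. It had 174 and 265 CPM in Dph1 KO, against 422 and 545 CPM in Control, with a log2 fold change of -1.14 (SE 0.29; edgeR adjusted p = 0.0338). Ndufb10, a subunit of the membrane arm of complex I, had 122 and 195 CPM in Dph1 KO and 281 and 415 CPM in Control (log2 fold change -1.13, SE 0.30; edgeR adjusted p = 0.0391). Cox4i1 encodes the main form of subunit 4 of cytochrome c oxidase, an early partner in the assembly of complex IV. It had 402 and 630.2 CPM in Dph1 KO and 1042 and 1189 CPM in Control, with a log2 fold change of -1.11 (SE 0.30; edgeR adjusted p = 0.0404). In each of these genes the higher Dph1 KO library lay below the lower Control library.

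The other 4 showed the same separation. Ndufa11, another subunit of the membrane arm, had 101 and 162 CPM in Dph1 KO and 234 and 305 CPM in Control (log2 fold change -1.04, SE 0.28; edgeR adjusted p = 0.0409). Ndufb8, also of the membrane arm, had 124 and 191 CPM in Dph1 KO and 309 and 321 CPM in Control (log2 fold change -1.004, SE 0.27; edgeR adjusted p = 0.0391). Ndufv3, a small subunit attached to the NADH-binding tip of complex I, had 74.7 and 123 CPM in Dph1 KO and 174 and 217 CPM in Control (log2 fold change -0.98, SE 0.28; edgeR adjusted p = 0.0444). Atp5sl is known in human as DMAC2, an assembly protein for the membrane arm of complex I and not a part of ATP synthase. It had 27.8 and 30.3 CPM in Dph1 KO, the closest pair among the 7, and 47.1 and 58.8 CPM in Control. Its log2 fold change was -0.87 (SE 0.20), with the lowest edgeR adjusted p among them at 0.0275. The calls depended on single libraries. Without Control replicate 2 none of the 7 was called (adjusted p 0.189 for Ndufb8 to 0.285 for Ndufb10), and without Control replicate 1 only Ndufb10 was (adjusted p = 0.0300). Without Dph1 KO replicate 1, Atp5o, Atp5sl, Ndufb10 and Ndufb8 were called and Ndufb3 was called as a rise. Without Dph1 KO replicate 2, 34 of the tested genes fell and 5 rose. In these 4 fits, in the same order, 2.5%, 4.13%, 5.59% and 20.4% of all genes fell and 1.32%, 1.31%, 4.15% and 18.9% rose.

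**Figure D2:**
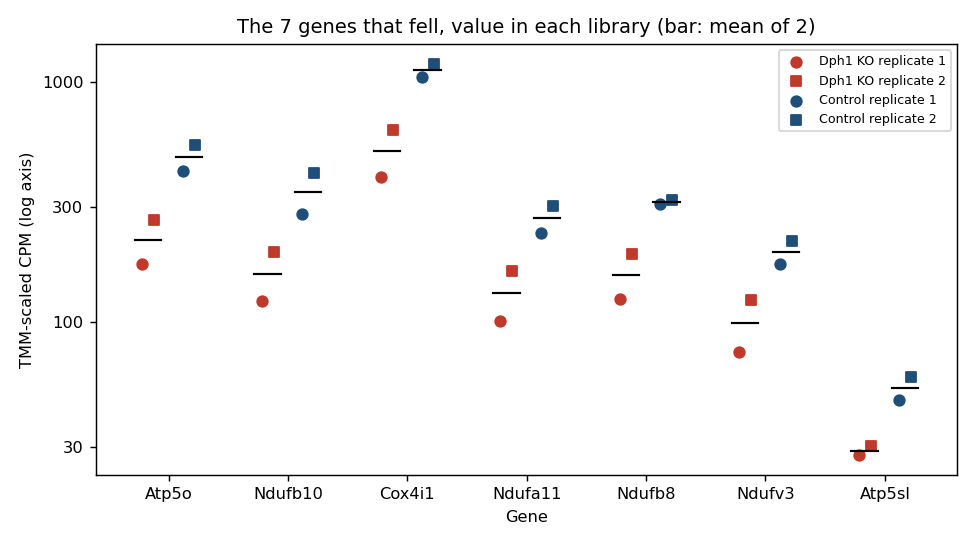
TMM-scaled CPM (log axis) of the 7 genes that fell, one point per library, with Dph1 KO in red to the left of Control in blue and a bar at the mean of 2. In each gene both red points lie below both blue points, and replicate 1 of Dph1 KO is the lowest; Cox4i1 stood at 402 and 630.2 CPM in Dph1 KO and at 1042 and 1189 CPM in Control.

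Complex I has an electron input module, a quinone module and a membrane arm. The 3 core genes of the input module went different ways without a call. Ndufv1, whose protein binds NADH and its flavin, had 189 and 249 CPM in Dph1 KO and 318 and 424 CPM in Control (log2 fold change -0.76, SE 0.27; edgeR adjusted p = 0.0782). Ndufv2, the gene of its partner, had 61.9 and 61.0 CPM in Dph1 KO and 49.3 and 44.0 CPM in Control (0.40, SE 0.20, adjusted p = 0.176 in edgeR). The RNA levels of this pair of genes thus lay on opposite sides of Control. Ndufs1, the largest core protein of the module, had 74.8 and 54.7 CPM in Dph1 KO and 39.9 and 49.9 CPM in Control (0.53, SE 0.23; adjusted p = 0.130 in edgeR). In the quinone module, the core genes Ndufs7, Ndufs8 and Ndufs3 had lower levels in both Dph1 KO libraries than in either Control library. Their log2 fold changes were -0.69 for Ndufs7, -0.67 for Ndufs8 and -0.36 for Ndufs3, with edgeR adjusted p from 0.0758 to 0.272, so none of the 3 was called.

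Among 29 accessory subunits of complex I, 4 fell and 25 were not called, where 7.47% of all genes tested fell. The median log2 fold change of the 29 was -0.09. Levels lay below both Control libraries in 12 of them, above both in 5 and overlapped in 12, where 32.5% of all genes lay below and 34.9% above. The lowest after the 4 called genes were Ndufa13 (-0.70), Ndufa8 (-0.69) and Ndufa7 (-0.63), which stood at 0.0011, -0.26 and -0.095 after the GC correction described with the GC content of the genes. At the other end stood Ndufb3, a membrane arm subunit, with 35.3 and 41.4 CPM in Dph1 KO and 26.4 and 23.5 CPM in Control. Its log2 fold change was 0.62 (SE 0.20; edgeR adjusted p = 0.0610), the highest of the structural subunits of all complexes and not past the threshold. Ndufs4, whose loss in mice causes a Leigh-like disease, had 29.2 and 27.9 CPM in Dph1 KO and 21.0 and 19.5 CPM in Control (0.49; edgeR adjusted p = 0.0982). Ndufab1, the mitochondrial acyl carrier protein, overlapped between the genotypes (0.11; edgeR adjusted p = 0.763), and 38.4% of its reads matched one place.

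The 6 genes named Ndufaf encode assembly factors, which help to build complex I and are not in the finished enzyme. None was called, and their median log2 fold change was 0.14. Ndufaf5 stood highest (0.63; edgeR adjusted p = 0.141) at 4.62 and 5.49 CPM in Dph1 KO and 3.64 and 2.89 CPM in Control. Ndufaf3 stood lowest (-0.46; edgeR adjusted p = 0.133) at 19.9 and 25.0 CPM in Dph1 KO and 29.4 and 32.4 CPM in Control. Of 7 other assembly genes of complex I in a separate list, 0 rose and 0 fell, and Nubpl and Acad9 came closest. Nubpl had 8.90 and 9.01 CPM in Dph1 KO and 5.77 and 4.84 CPM in Control (0.76; edgeR adjusted p = 0.0562). Acad9 had 36.7 and 30.4 CPM in Dph1 KO and 21.5 and 21.7 CPM in Control (0.63; edgeR adjusted p = 0.0563). Without adjustment, 1 of the 6 Ndufaf genes was lower in edgeR at p under 0.05 and 1 was higher, where 17.9% and 16.3% of all genes were. DESeq2 called none of the 6.

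Complex II, the succinate dehydrogenase that also works in the citrate cycle, had 4 genes and no call. The catalytic flavoprotein gene Sdha had 249 and 217 CPM in Dph1 KO and 168 and 218 CPM in Control (log2 fold change 0.27; edgeR adjusted p = 0.436). Sdhb, of the iron-sulphur subunit, had 173 and 235 CPM in Dph1 KO and 242 and 218 CPM in Control (-0.17; edgeR adjusted p = 0.644). The membrane anchor genes were Sdhc (-0.36; edgeR adjusted p = 0.307) and Sdhd (0.20; edgeR adjusted p = 0.543). Only Sdhc separated the genotypes, at 181 and 240 CPM in Dph1 KO and 276 and 267 CPM in Control. None of the 4 had an unadjusted p under 0.05, and DESeq2 called none.

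Complex III had 9 genes tested and no call by edgeR. Uqcrc1 and Uqcrc2 encode the paired core proteins, which are related to a mitochondrial processing peptidase. Uqcrc1 had 384 and 537 CPM in Dph1 KO and 742 and 949.7 CPM in Control (log2 fold change -0.88, SE 0.29; edgeR adjusted p = 0.0654). Uqcrc2 had 162 and 139.7 CPM in Dph1 KO and 107 and 139 CPM in Control (0.30, SE 0.23; edgeR adjusted p = 0.377), so the 2 core genes lay on opposite sides of 0. Cyc1, the gene of cytochrome c1, had 278 and 429 CPM in Dph1 KO and 563 and 624 CPM in Control (-0.75, SE 0.28; edgeR adjusted p = 0.0960). The Rieske iron-sulphur protein gene Uqcrfs1 overlapped between the genotypes (-0.20; edgeR adjusted p = 0.558). The remaining small subunits lay between -0.29 for Uqcr11 and 0.31 for Uqcrb. Without adjustment, 2 of the 9 were lower and 0 higher in edgeR at p under 0.05, where 17.9% and 16.3% of all genes were. DESeq2 called Uqcrc1 and Cyc1 as falls, where it called 10.8% of all genes as falls. The mobile carrier gene Cycs had 77.3 and 64.7 CPM in Dph1 KO and 58.4 and 52.8 CPM in Control (0.35; edgeR adjusted p = 0.244), but 1.79% of its reads matched one place, so they cannot be told apart from reads of near-identical copies.

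Complex IV had the lowest median of the complexes, with 1 of 11 genes called as a fall, where 7.47% of all genes tested fell. Of the 11 genes, 9 had both Dph1 KO libraries below both Control libraries, where 32.5% of all genes tested did. After Cox4i1, the lowest was Cox6a1, the form of subunit 6A found outside muscle, with 318 and 525 CPM in Dph1 KO and 700.1 and 895 CPM in Control (log2 fold change -0.92, SE 0.31; edgeR adjusted p = 0.0694). Cox6b1 followed, at 201 and 299.8 CPM in Dph1 KO and 401 and 450.1 CPM in Control (-0.76, SE 0.27; edgeR adjusted p = 0.0814). Cox5a and Cox5b, subunits on the matrix side, had log2 fold changes of -0.46 and -0.49. Cox7a2l, known to link complexes III and IV into supercomplexes, had one of -0.19. Cox7b alone stood higher in both Dph1 KO libraries, at 43.4 and 42.4 CPM against 36.5 and 33.98 CPM in Control (0.28; edgeR adjusted p = 0.304). Ndufa4, first named for complex I and now counted with complex IV, had 111 and 109 CPM in Dph1 KO and 93.0 and 76.6 CPM in Control (0.37; edgeR adjusted p = 0.232). Only 1.47% of the reads of Cox7c matched one place.

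Some complex IV subunits exist in tissue forms, and the liver forms made up nearly all of each family. By TPM, a level per transcript length, Cox4i1 was 99.90% and 99.93% of the Cox4 family in Dph1 KO and 99.98% and 99.97% in Control. Cox4i2, the lung form, had 10 and 11 reads in Dph1 KO and 5 and 7 in Control. The heart and muscle forms Cox6a2 and Cox8b had at most 6 reads in any library, and muscle markers summed to 0.0848 and 0.412 CPM in Dph1 KO and 0.218 and 0.167 CPM in Control. The muscle form Cox7a1 was tested at 15 and 30 reads in Dph1 KO and 20 and 11 in Control, without a call (log2 fold change of 0.23; edgeR adjusted p = 0.772). Cox6b2, known from testis, was 2.89% and 2.55% of Cox6b TPM in Dph1 KO and 1.64% and 1.29% in Control. Its 9.20 and 11.02 CPM in Dph1 KO and 8.70 and 7.95 CPM in Control gave a log2 fold change of 0.28 (edgeR adjusted p = 0.383), while Cox6b1 stood lower. Cox7b2 had 1 read in all and Cox8c 0. These counts are of reads, and a count of 0 allows up to 3 reads.

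In complex V, 1 of 15 genes fell, where 7.47% of all genes tested fell. Log2 fold changes differed among genes of the same part of the enzyme. The catalytic head is built of alpha and beta subunits, encoded by Atp5a1 and Atp5b. Atp5a1 had 633 and 642 CPM in Dph1 KO and 608 and 659.8 CPM in Control (log2 fold change 0.01; edgeR adjusted p = 0.986), so the genotypes overlapped. Atp5b had 1018 and 1116 CPM in Dph1 KO, against 1470.0 and 1810.2 CPM in Control (-0.62, SE 0.28; edgeR adjusted p = 0.145). In the central stalk, Atp5c1 had a log2 fold change of 0.18. Atp5d had one of -0.91 (edgeR adjusted p = 0.0687) and Atp5e one of -0.78 (edgeR adjusted p = 0.0762). After GC correction Atp5b stood at -0.49, Atp5c1 at 0.22 and Atp5e at -0.26. In the peripheral stalk, Atp5o fell, while Atp5f1, Atp5h and Atp5j had log2 fold changes of 0.42, -0.06 and 0.02 and were not called. Atp5f1 had 167 and 146 CPM in Dph1 KO and 116 and 117 CPM in Control (edgeR adjusted p = 0.185).

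Atp5g1, Atp5g2 and Atp5g3 encode one and the same mature protein, the subunit of the proton-driven ring. Atp5g3 was the most abundant, at 60.8% and 54.0% of their TPM in Dph1 KO and 55.3% and 48.8% in Control. Atp5g1 made up 17.4% and 21.0% in Dph1 KO and 21.3% and 27.5% in Control. In CPM, Atp5g1 had 173 and 303 in Dph1 KO and 386 and 565 in Control (log2 fold change -0.999, SE 0.32; edgeR adjusted p = 0.0634). Atp5g2 (-0.65) and Atp5g3 (-0.53) were not called either. The split between Atp5g1 and Atp5g2 is uncertain, since 13.3% and 1.24% of their reads matched one place, against 99.98% for Atp5g3.

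Levels were also summed per length over each complex. The TPM of the 11 complex IV genes summed to 6272 and 7260 in Dph1 KO, against 8621 and 9040.3 in Control. Complex V summed to 8950.3 and 9720.2 in Dph1 KO, against 10791 and 10645 in Control. Both sums were lower in both Dph1 KO libraries. Complex II went the other way in these sums, with 1072 and 1004 TPM in Dph1 KO and 909 and 836 TPM in Control. The sums carry no TMM scaling. On TPM (limma-trend) the median log2 fold change was 0.32 over all genes tested and 0.39 in complex II. Complex I (9476 and 10449 TPM in Dph1 KO, 10668 and 10206 TPM in Control) and complex III (4641 and 4873 TPM in Dph1 KO, 4948 and 4458 TPM in Control) overlapped. Summed as TMM-scaled CPM, complex II overlapped (726 and 793 in Dph1 KO, 772 and 810 in Control). In CPM complex I (3339 and 4475 in Dph1 KO, 5181 and 5594 in Control) lay below Control in both Dph1 KO libraries. So did complex III (1668 and 2178 in Dph1 KO, 2582 and 2746 in Control), and complexes IV and V. For the TPM sums of complexes II, IV and V a two-sided exact permutation test gave the smallest p that 2 against 2 libraries allow, 0.333, in each. It thus adds nothing to the lack of overlap given above and was no test of its own.

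Ratios of subunits within a library do not depend on its scaling, and these pairs were chosen after their values were seen. The TPM of Atp5o was 0.866 and 1.30 times that of Atp5a1 in Dph1 KO, against 2.19 and 2.60 times in Control, and the 2 transcripts have similar GC content (53.8% and 54.5%). Atp5b stood at 2.08 and 2.25 times Atp5a1 in Dph1 KO and at 3.13 and 3.56 times in Control. Cox4i1 was 3.56 and 4.69 times Cox5a in Dph1 KO and 6.32 and 6.74 times in Control. Ndufb8 was 0.499 and 0.536 times Ndufb9 in Dph1 KO and 0.667 and 0.764 times in Control. Each of the 4 ratios was lower in both Dph1 KO libraries than in either Control library. Cox4i1 and Cox5a differ in GC content (58.0% and 49.0%), and after GC correction their log2 fold changes were -0.44 and -0.38.

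Dph1 KO replicate 1 stood apart in these genes. It was the lowest of the 4 libraries in 56 of the 88 genes (63.6%), against 36.1% of all genes tested. It lay below Dph1 KO replicate 2 in 71 of the 88 (80.7%), against 48.8% of all genes. Both Dph1 KO libraries lay below both Control libraries in 41 of the 88 genes, or 46.6%, where 32.5% of all genes tested did so. Both lay above in 17, or 19.3%, where 34.9% of all genes did so. The median distance of a respiratory chain gene from its Control level was -0.36 on the log2 scale in Dph1 KO replicate 1 and -0.05 in Dph1 KO replicate 2. For complex IV the 2 values were -0.59 and -0.26, and for complex V -0.64 and -0.21. Without Dph1 KO replicate 1 the median log2 fold change was -0.03 over all of the genes, -0.24 in complex IV and -0.19 in complex V. Without Dph1 KO replicate 2 it was -0.37 over all of them. The share of intron reads among reads of nuclear genes was 5.77% and 4.67% in Dph1 KO and 4.05% and 3.36% in Control, and its part in these levels was not tested.

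**Figure D3:**
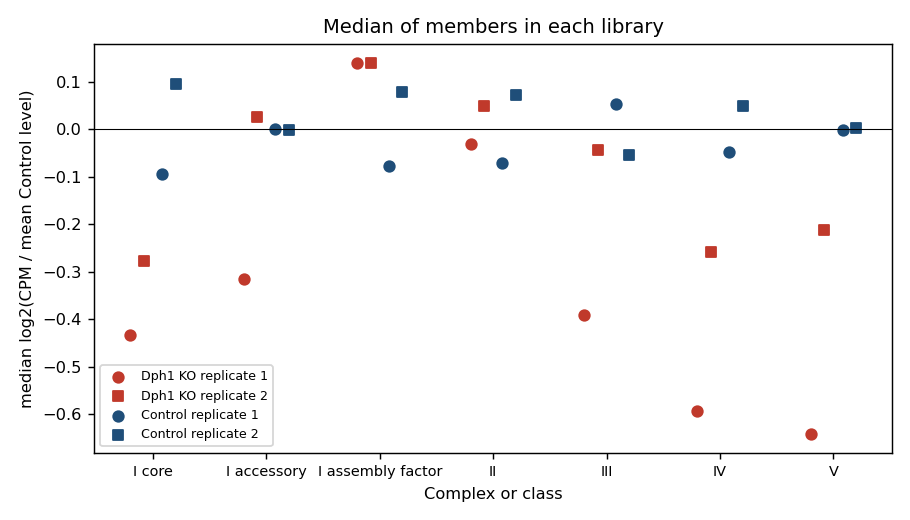
Median over the tested genes of each complex or class of log2(CPM over the mean Control level), one point per library, with Dph1 KO to the left of Control. Of the 7 classes plotted, Dph1 KO replicate 1 is the lowest library in all but complex II and the assembly factors, and in the complex I core and complexes IV and V both Dph1 KO libraries lie below both Control libraries.

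The fold changes ran with the GC content of the transcripts, both over all genes and within the respiratory chain. The Spearman correlation of log2 fold change with GC content was -0.63 across 12504 protein-coding genes and -0.61 across the 88 genes. Genes share libraries, so these are descriptions. It was -0.76 over the 36 complex I subunits, -0.87 over 9 of complex III, -0.77 over 11 of complex IV and -0.23 over 15 of complex V. In 5 equal classes of protein-coding genes by rising GC, the respiratory chain genes had medians of 0.28, 0.11, -0.17, -0.42 and -0.70. Over all genes of those classes it was 0.49, 0.30, 0.04, -0.25 and -0.57, so the respiratory chain genes had the lower median in each class. Their exon length was also short, with a median of 746.5 bases against 2842.5 bases. Opposed pairs within a complex differed in GC content too: 57.5% for Uqcrc1 and 44.4% for Uqcrc2, and 56.7% for Ndufv1 and 42.0% for Ndufv2.

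With a smooth trend on GC content and length removed from each library, 5 of the 88 genes fell and 3 rose, where 4.61% of all genes fell and 4.29% rose. Of the 7 falls, Ndufb8 (log2 fold change -1.04, edgeR adjusted p = 0.0170), Atp5o (-0.76, edgeR adjusted p = 0.0357) and Atp5sl (-0.63, edgeR adjusted p = 0.0348) were called again. The other 4 were not, at -0.62 for Ndufb10, -0.55 for Ndufa11, -0.54 for Ndufv3 and -0.44 for Cox4i1, with edgeR adjusted p from 0.0791 to 0.129. Atp5g1 (-1.07, edgeR adjusted p = 0.0445) and the assembly factor gene Ndufaf4 (-0.89, edgeR adjusted p = 0.0184) also fell in this fit. Ndufa6 (0.77, edgeR adjusted p = 0.0357), Cox6b2 (0.85, edgeR adjusted p = 0.0288) and Ndufb3 (0.53, edgeR adjusted p = 0.0498) rose. The medians became 0.04 in complex I, 0.19 in complex II, 0.02 in complex III, -0.18 in complex IV and 0.02 in complex V, beside 0.01 over all genes.

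**Figure D4:**
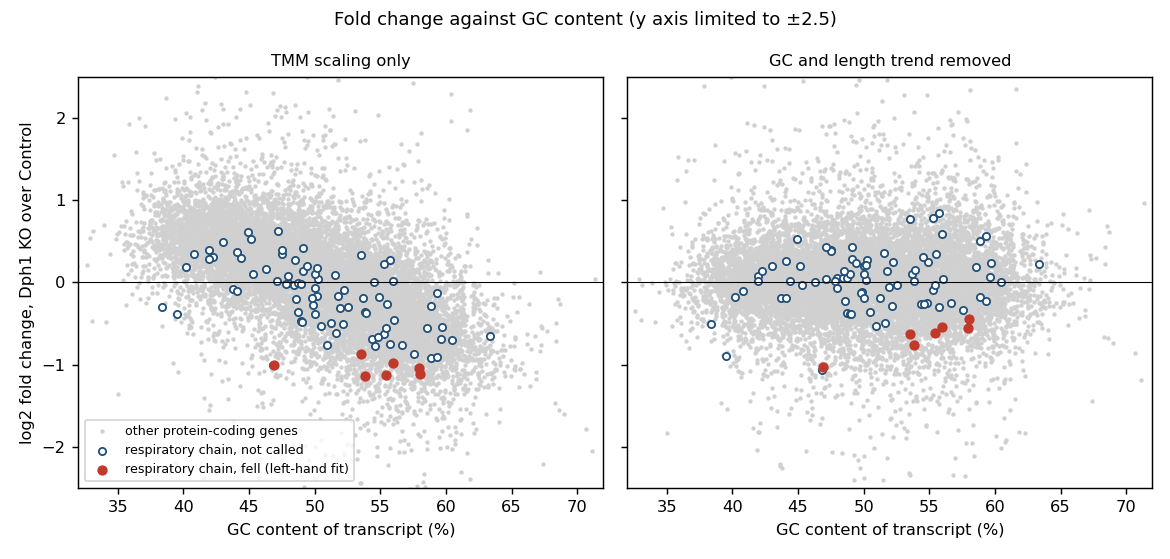
Log2 fold change (Dph1 KO over Control) against the GC content of the longest transcript (%), before (left) and after (right) removing a smooth GC and length trend; grey points are other protein-coding genes and circles respiratory chain genes, filled where they fell in the left-hand fit. On the left both clouds slope down with GC content (Spearman -0.63 and -0.61), and on the right the filled point at 46.9% GC, Ndufb8, keeps its distance from 0.

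The order of complexes also depended on the fit, and the scaling moved all genes. With no scaling beyond the library total, the median of all genes tested was 0.30 and 77.0% of calls were rises, against 0.04 and 39.4% with TMM scaling. Limma-trend on log2(TPM + 1) gave 0.32 and 80.8%. Relative to the median of all genes in the same fit, the respiratory chain median was -0.23 with TMM scaling, -0.24 with no scaling, -0.13 on TPM and 0.01 after GC correction. Complex IV stood at -0.51 relative to all genes with TMM scaling and at -0.18 after GC correction. DESeq2 called 18 of the genes as falls and 0 as rises, where it called 10.8% of all genes as falls. Other fits are given beside their own background. With no scaling 8 of the genes rose and 8 fell, where 19.8% and 5.93% of all genes did. On TPM 16 rose and 7 fell, where 22.1% and 5.25% of all genes did. With exon reads 1 rose and 7 fell, where 6.45% and 8.95% did, and with no filter on low counts 0 rose and 11 fell, where 4.31% and 6.68% did. The falls that DESeq2 added included Atp5b, Atp5d, Cox6a1, Cox6b1, Cyc1, Ndufv1 and Uqcrc1.

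**Figure D5:**
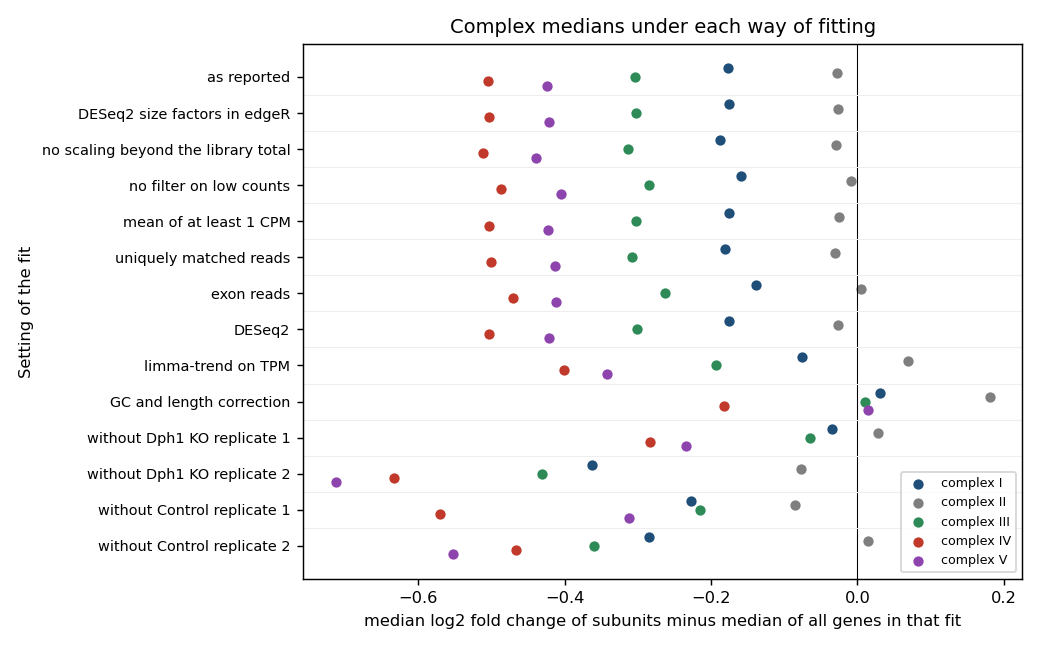
Median log2 fold change of the subunits of each complex minus the median of all genes in the same fit, for each way of fitting (rows). Complex IV (red) lies below 0 in each row, at -0.51 as reported and -0.18 after GC and length correction, while complex I, III and V lie at or just above 0 in that row.

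Promoters of respiratory chain genes are known to bind the factors NRF1, NRF2 (an ETS factor), YY1 and the ERR receptors. RefSeq windows on GRCm38.p6, from 250 bases before to 50 bases after the start, were found for 76 of the 94 genes and searched on both strands for the NRF1 word (GCGC and TGCGC around 1 base of any kind), the ETS word CCGGAAG, the YY1 word AANATGGC and the ERR word TCAAGGTCA. The NRF1 word stood in 18 of the 76 windows (23.7%), against 6.84% of 16869 protein-coding windows and 10.4% of the 10056 whose genes were tested. The YY1 word stood in 18 (23.7%), against 6.76% and 8.66% of the same windows. The ETS word stood in 16 (21.1%), against 12.4% and 18.4%, and the ERR word in 2 (2.63%), against 0.338% and 0.249%. Of the 6 genes that fell and had a window, 2 held the NRF1 word, 3 the YY1 word and 0 the others. Among 68 windows of genes tested and not called, 23.5% held the NRF1 word and 22.1% the YY1 word. The windows of the 3 genes called in both fits are shown, with that of Ndufb3 for contrast, chosen after their values were seen; capitals mark a match, and Ndufb3 had none:
Atp5o: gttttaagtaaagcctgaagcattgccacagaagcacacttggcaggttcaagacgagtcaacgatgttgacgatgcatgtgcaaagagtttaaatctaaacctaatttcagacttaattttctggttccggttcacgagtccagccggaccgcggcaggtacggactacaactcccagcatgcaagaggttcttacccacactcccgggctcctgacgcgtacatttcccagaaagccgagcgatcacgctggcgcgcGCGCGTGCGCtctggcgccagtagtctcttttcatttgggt
Ndufb8: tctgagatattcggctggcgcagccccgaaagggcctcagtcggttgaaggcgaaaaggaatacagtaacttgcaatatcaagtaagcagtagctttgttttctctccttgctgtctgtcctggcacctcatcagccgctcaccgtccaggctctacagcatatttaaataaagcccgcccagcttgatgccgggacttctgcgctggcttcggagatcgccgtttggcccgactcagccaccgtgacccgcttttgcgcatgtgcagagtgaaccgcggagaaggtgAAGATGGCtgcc
Atp5sl: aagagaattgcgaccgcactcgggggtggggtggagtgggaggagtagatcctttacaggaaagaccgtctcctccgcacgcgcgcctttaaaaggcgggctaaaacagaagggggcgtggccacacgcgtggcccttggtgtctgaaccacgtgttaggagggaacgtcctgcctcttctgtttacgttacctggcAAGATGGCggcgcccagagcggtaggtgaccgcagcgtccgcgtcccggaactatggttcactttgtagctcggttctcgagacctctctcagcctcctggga
Ndufb3: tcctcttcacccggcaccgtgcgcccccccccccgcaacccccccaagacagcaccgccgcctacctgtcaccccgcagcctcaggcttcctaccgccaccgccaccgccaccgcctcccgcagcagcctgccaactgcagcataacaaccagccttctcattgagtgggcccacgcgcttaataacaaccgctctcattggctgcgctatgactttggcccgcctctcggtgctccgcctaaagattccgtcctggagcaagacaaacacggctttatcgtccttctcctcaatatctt
The Atp5o window is chr16:91931581-91931880 on the minus strand, and its NRF1 word begins 9 bases after the start. Ndufb8 is chr19:44555393-44555692 on the minus strand, with the YY1 word 38 bases after the start. Atp5sl is chr7:25619243-25619542 on the plus strand, with the YY1 word 53 bases before it. Ndufb3 is chr1:58586147-58586446 on the plus strand, from a RefSeq start 202 bases away from that of the deposited table.

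Genes that act beside the chain were counted from separate lists. Of 32 tested assembly genes of complexes II to V, 0 rose and 3 fell, where 4.86% of all genes rose and 7.47% fell. They were Sdhaf1, which helps to insert iron-sulphur clusters into Sdhb (22.4 and 30.4 CPM in Dph1 KO, 56.7 and 42.5 CPM in Control), Bcs1l, which inserts the Rieske protein (13.7 and 15.6 CPM in Dph1 KO, 21.97 and 30.4 CPM in Control), and Cox19, of copper delivery to complex IV (42.0 and 52.0 CPM in Dph1 KO, 71.9 and 84.5 CPM in Control). Their log2 fold changes were -0.91, -0.84 and -0.73, and all 3 were called again after GC correction. In that fit 4 genes of the list fell and 1 rose, where 4.61% and 4.29% of all genes did. The added fall was Sdhaf2 (-0.64, edgeR adjusted p = 0.0470) and the rise Cox11 (0.72, edgeR adjusted p = 0.0438). Sdhaf1 was not called without Control replicate 1 (edgeR adjusted p = 0.232), nor Bcs1l without Control replicate 2 (edgeR adjusted p = 0.361). Cox19 was called only in the fit without Dph1 KO replicate 2 among the 4 with a library left out, and its edgeR adjusted p was 0.0668 without Dph1 KO replicate 1, 0.149 without Control replicate 1 and 0.364 without Control replicate 2. Of 13 regulator genes, only Pprc1, a coactivator related to PGC-1, fell (22.5 and 22.7 CPM in Dph1 KO, 36.5 and 37.0 CPM in Control; log2 fold change -0.70, edgeR adjusted p = 0.0391). After GC correction Pprc1 was not called (-0.45; edgeR adjusted p = 0.0736). It was not called without Control replicate 1 (edgeR adjusted p = 0.205) or Control replicate 2 (edgeR adjusted p = 0.257). Nrf1 (0.19), Tfam (0.09) and Esrra (-0.73; edgeR adjusted p = 0.0589) were not called. After GC correction the log2 fold changes were 0.096 for Nrf1, -0.29 for Tfam and -0.030 for Esrra. Of 11 tested genes of the mitochondrial chromosome, 0 rose and 0 fell, with a median log2 fold change of -0.13. Mitochondrial subunit genes held 5.46% and 3.70% of reads in Dph1 KO and 4.66% and 2.91% in Control, so the genotypes overlapped, while the nuclear genes held 1.36% and 1.58% in Dph1 KO and 1.72% and 1.77% in Control.

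Ubiquinone, the electron carrier between complexes I or II and III, is made by the Coq enzymes, and 1 of 13 tested genes of its synthesis rose and 2 fell, where 4.86% and 7.47% of all genes did. Adck3 (Coq8a), an atypical kinase of the pathway, had 268 and 366 CPM in Dph1 KO, against 148 and 151 CPM in Control (log2 fold change 1.08, SE 0.25; edgeR adjusted p = 0.0260). Adck4 (Coq8b), its paralog, had 29.5 and 53.4 CPM in Dph1 KO, against 93.0 and 99.9 CPM in Control (-1.22, SE 0.27; edgeR adjusted p = 0.0237). Coq4, which holds the synthesis enzymes together, had 10.3 and 14.7 CPM in Dph1 KO and 23.6 and 28.5 CPM in Control (-1.06, SE 0.23; edgeR adjusted p = 0.0217). All 3 were called in the same direction after GC correction, at 1.16, -0.69 and -0.85. Coq2 also rose in that fit (0.56, edgeR adjusted p = 0.0479), where 4.29% of all genes rose. Adck4 was called with any 1 library left out, Coq4 was not without Control replicate 2 (edgeR adjusted p = 0.111), and Adck3 was not without Control replicate 1 (edgeR adjusted p = 0.175) or Control replicate 2 (edgeR adjusted p = 0.184). The TPM of Adck4 was 0.197 and 0.261 times that of Adck3 in Dph1 KO, against 1.14 and 1.22 times in Control. Etfdh, which passes electrons from fatty acid and amino acid oxidation to ubiquinone, also rose (197 and 150 CPM in Dph1 KO, 87.2 and 101 CPM in Control; log2 fold change 0.88, edgeR adjusted p = 0.0388), and rose after GC correction (0.70). It was not called without Control replicate 1 (edgeR adjusted p = 0.304) or Control replicate 2 (edgeR adjusted p = 0.193).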

How the data were processed

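Liver RNA was measured by stranded mRNA sequencing in 2 Dph1 KO and 2 Control libraries, per the labels' protocols. Per the submitters' processing notes, the build was GRCm38 (mm10). The sources used here give no aligner, counter or use of strand in counting. Per the file headers, the authors deposited read counts per gene (total, unique, exon and intron), with TPM and RPKM values computed from exon reads. The RPKM values and the fraction columns (0 to 1) that the authors deposited were not used. Reads that match several places are in the total count, so genes with close copies are uncertain, as are overlapping genes.

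Counts were tested in R 4.3.3 with edgeR 4.0.16 (filterByExpr, TMM, glmQLFit and glmQLFTest with genotype as the only term) and Benjamini-Hochberg adjustment over 13303 genes. "Rose" and "fell" mean an adjusted p under 0.05. An SE is the size of the log2 fold change over the square root of its F statistic. The longest GENCODE M21 transcript of a gene gave its GC content. A smooth of GC content and exon length (mgcv 1.9.3, basis size 6) served as the offset of each library. DESeq2 1.42.0, limma 3.58.1 (limma-trend), other scalings, filters and read classes, and each library left out were alternatives. The test, run on simulated data with the real means and depths, recovered 11.9% of genes made to differ 1.5-fold, 56.7% of those at 2-fold and 100% of those at 4-fold. Of its 119 calls 7 were false, and it made 0 calls over 13145 genes when nothing was changed. The simulation gave all genes the same dispersion and no trend with GC content, and changed only genes above a minimum mean level. Its counts thus do not measure false calls in the real libraries.

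Genes named were all called members, the 2 most abundant and the extreme members of each class, all members of isoform families, and up to 3 called genes of each other list; further genes were named after their values were seen. The members, the lists and their roles were chosen with earlier results of these data known. Subunits or factors that the tables list under other symbols (Usmg5, 2010107E04Rik, 2410091C18Rik and 1810043H04Rik) fall outside the rule, and none was called. Ndufb1 was not analysed here. Tables were made in Python 3.11.15 (pandas 2.3.3, SciPy 1.17.1).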

Additional observations from a re-analysis of the deposited data

How the results depend on the processing

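No paired analysis was possible because the labels number no replicates, and the numbers used here only name the libraries in the order of their records. With 2 libraries a genotype at these depths, changes near 1.5-fold were mostly not called in simulated data. A library left alone in its genotype was taken to have the spread of the other genotype's libraries. DESeq2 size factors in edgeR, uniquely matched reads and a mean of at least 1 CPM moved no count of rises or falls by over 1.5 times over all genes, the respiratory chain genes or any complex. Without adjustment, with the size factors 2 of the 88 genes were higher in edgeR at p under 0.05, against 4 as reported. Of the Ndufaf genes 0 were, against 1, and over all 13303 genes 2017 were, against 2168. The direction of each named gene was kept, except that with the size factors Atp5a1 and Atp5j, near 0, stood at -0.022 and -0.014, as they did with DESeq2. Ndufv3 was not called with a mean of at least 1 CPM. Causes of the shifts below were not tested.

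With no scaling beyond the library total, 2634 genes and 8 respiratory chain genes rose. Limma-trend on TPM gave 2363 rises and 562 falls over all genes and 16 rises among the respiratory chain genes. GC and length correction left 613 falls over all genes and 3 rises among the respiratory chain genes. Exon reads gave 1 rise, Ndufb3. With no filter on low counts 11 respiratory chain genes fell, and with DESeq2 18 did. The median log2 fold change with no scaling, on TPM and after GC correction was 0.065, 0.19 and 0.019 over the respiratory chain genes. In the same order it was 0.12, 0.24 and 0.038 in complex I, 0.27, 0.39 and 0.19 in complex II, and -0.0088, 0.13 and 0.018 in complex III. In complex IV it was -0.21, -0.082 and -0.18, and in complex V -0.13, -0.022 and 0.021.

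Leaving out 1 library gave 180 to 2599 rises and 346 to 2806 falls over all genes, and 0 to 5 rises and 0 to 34 falls among the respiratory chain genes. The medians ranged from -0.37 to -0.026 over the respiratory chain genes, from -0.31 to 0.0054 in complex I, from -0.032 to 0.068 in complex II, from -0.38 to -0.026 in complex III, from -0.58 to -0.24 in complex IV and from -0.66 to -0.19 in complex V. For each median except that of complex II, the lowest value came without Dph1 KO replicate 2 and the highest without Dph1 KO replicate 1.

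None of the genes whose sign turned was called in the reported fit; they include genes named after their values were seen. After GC correction the log2 fold change was 0.23 for Atp5g2, -0.18 for Atp5s, 0.19 for Cox8a, -0.10 for Cycs, 0.57 for Ndufa4l2, 0.046 for Ndufaf3, 0.021 for Ndufs3, 0.065 for Ndufs7, 0.25 for Sdhb, 0.50 for Uqcr11, 0.031 for Uqcrq, 0.0011 for Ndufa13, -0.025 for Ndufab1, 0.11 for Atp5h and -0.29 for Tfam. On TPM it was 0.076 for Cox7a2, 0.18 for Cox7a2l, 0.20 for Ndufa4l2, 0.0043 for Ndufs3, 0.19 for Sdhb, 0.0084 for Sdhc, 0.26 for Slc25a5, 0.078 for Uqcr11, 0.22 for Uqcrq, 0.31 for Atp5h, 0.20 for Uqcrfs1, 0.11 for Cox7c and 0.014 for Ndufaf4. With no scaling it was 0.064 for Cox7a2l, 0.12 for Ndufa4l2, 0.075 for Sdhb, 0.13 for Slc25a5, 0.080 for Uqcrq, 0.19 for Atp5h and 0.055 for Uqcrfs1. With 1 library left out it ranged from -0.028 to 0.40 for Atp5s, -0.13 to 0.38 for COX1, -0.40 to 0.71 for Cox7a1, -0.66 to 0.31 for ND5, -0.47 to 0.19 for Ndufa4l2, -0.39 to 0.055 for Sdhb, -0.60 to 0.0075 for Uqcr11 and -0.34 to 0.018 for Uqcrq. Without 1 library the sign also turned for Ndufab1 (-0.043 without Dph1 KO replicate 2), Tfam (-0.0030 without Control replicate 2), Atp5h (0.10 without Dph1 KO replicate 1), Atp5j (-0.0015 without Dph1 KO replicate 2 and -0.025 without Control replicate 2) and Atp5a1 (-0.056 without Control replicate 1).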

Other observations

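Of the 7 respiratory chain genes that fell, 3 lie on chromosome 17 (Ndufb10, Ndufv3 and Ndufa11), where 6 were tested. Over all genes, chromosome 17 had the highest share of falls of the 20 chromosomes, 12.2% of 703 genes tested, against 7.47% over all chromosomes. After GC correction its share was 6.69%, again the highest, and none of the 6 respiratory chain genes there was called. Median GC content on chromosome 17 was 53.28%, just below the highest, 53.31% on chromosome 15, and the lowest was 46.3% on chromosome X.

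Pairs of genes that start back to back within 1000 bases can share a promoter region. Among 76 respiratory chain genes with a RefSeq window, 17 had such a neighbour, and in 14 pairs both genes were tested. The neighbour fell in 2 of these 14 pairs, where 7.47% of all genes tested fell. Both pairs lie on chromosome 17, where 12.2% of genes tested fell. Vmac starts 63 bases from Ndufa11 and had 38.7 and 55.0 CPM in Dph1 KO, against 103 and 82.9 CPM in Control (log2 fold change -0.99; edgeR adjusted p = 0.0290). Rps28, a ribosomal protein gene, starts 83 bases from Ndufa7 and had a log2 fold change of -1.16 (edgeR adjusted p = 0.0417), beside -0.63 for Ndufa7, which was not called. After GC correction neither was called (edgeR adjusted p = 0.0583 for Vmac and 0.0769 for Rps28). Vmac was not called without Control replicate 1 (edgeR adjusted p = 0.163), nor Rps28 without Control replicate 1 (edgeR adjusted p = 0.0558) or Control replicate 2 (edgeR adjusted p = 0.143). These observations were chosen after the values were seen. Whether counting used strand is not given, so overlapping reads of such pairs are uncertain.

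In the citrate cycle, which feeds the chain, 1 of 13 genes tested rose and 0 fell, where 4.86% and 7.47% of all genes did. Sucla2, a subunit gene of succinyl-CoA ligase, had 60.8 and 46.1 CPM in Dph1 KO and 28.7 and 33.4 CPM in Control (log2 fold change 0.78; edgeR adjusted p = 0.0415). It was not called after GC correction (0.44; edgeR adjusted p = 0.0887), without Control replicate 1 (edgeR adjusted p = 0.302) or without Control replicate 2 (edgeR adjusted p = 0.167). None of 8 carrier and porin genes was called, and at 440 and 503 CPM in Dph1 KO and 566 and 668 CPM in Control the phosphate carrier gene Slc25a3 had a log2 fold change of -0.39.

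Among cell type marker lists, 3 of 6 stellate cell genes fell (Acta2, Col1a1 and Des, at log2 fold changes of -2.16, -1.06 and -0.91), where 7.47% of all genes fell, and the list summed to 128 and 112 CPM in Dph1 KO and 128 and 149.6 CPM in Control. After GC correction only Acta2 of these was called (edgeR adjusted p = 0.0735 for Col1a1 and 0.124 for Des). Col1a1 was not called without Control replicate 2 (edgeR adjusted p = 0.164). Des was called only without Dph1 KO replicate 2 among the 4 fits with a library left out, at edgeR adjusted p of 0.0925 without Dph1 KO replicate 1, 0.0820 without Control replicate 1 and 0.160 without Control replicate 2. Of 6 macrophage genes Cd68 fell (40.0 and 56.99 CPM in Dph1 KO, 114 and 106 CPM in Control), and the list summed to 143 and 238 CPM in Dph1 KO and 243 and 253 CPM in Control. Of 4 tested lymphocyte genes Cd79a fell. It was not called after GC correction (edgeR adjusted p = 0.0876) or without Dph1 KO replicate 1 (0.0785), Control replicate 1 (0.0757) or Control replicate 2 (0.181). None of 5 bile duct, 5 endothelial, 2 tested erythroid and 1 tested neutrophil genes was called. None of the muscle, fat and germ cell markers had enough reads to be tested, and 3 of 7, 2 of 5 and 1 of 4 of them were at 0. The part of these cell types in the respiratory chain results was not tested.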
